A study of Saccharomyces cerevisiae with 16 samples.

Results

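The 10 genes described here encode the proteins that prepare the 5′ end of a yeast mRNA for the small ribosomal subunit (40S), together with the poly(A)-binding protein. They were taken by name from the authors' gene table, 10 of 5818 genes, with earlier results of these data known. CDC33 (YOL139C) encodes eIF4E, which binds the cap, and CAF20 (YOR276W) and EAP1 (YKL204W) encode eIF4E-binding proteins that compete with eIF4G for it. TIF4631 (YGR162W) and TIF4632 (YGL049C) encode eIF4G1 and eIF4G2, the scaffold that joins eIF4E, eIF4A and the poly(A)-binding protein. TIF1 (YKR059W) and TIF2 (YJL138C) encode the same eIF4A helicase, and TIF3 (YPR163C) encodes its partner eIF4B. DED1 (YOR204W) encodes another helicase of the DEAD-box family, and PAB1 (YER165W) encodes the poly(A)-binding protein.

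In cap-dependent initiation, eIF4F (eIF4E, eIF4G and eIF4A) marks the capped end and a 40S subunit carrying eIF3 and eIF2 loads there. The subunit scans the leader to the start codon, helped by helicases, and eIF2 hands over the initiator tRNA when the start codon is recognised. In human cells, the poly(A)-binding protein controls its own mRNA through an A-rich stretch in the leader.

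In translation complex profiling, RNase I footprints of 40S subunits fixed on mRNA by formaldehyde are sequenced. In the selective form, 40S complexes are pulled down through a FLAG tag on 1 initiation factor before sequencing. The gene table covered 6 libraries of 40S footprints out of 16 libraries in the series. Factor-bound 40S was represented by 1 library each for eIF3a (strain SY182, TIF32-FLAG, number 1-1), eIF3c (strain H25, NIP1-FLAG, number 1-2) and eIF2β (strain SY194, SUI3-FLAG, number 1-3, headed eIF2α in the table). Unselected 40S was represented by 3 libraries from the same tagged strains under the same numbers, without the pull-down, so all 6 libraries carry a FLAG tag. All cultures grew in YPD at 30 °C and were fixed with 0.8% formaldehyde for 1 h on ice, and footprints of about 18 to 85 nt were kept. Strain and factor cannot be told apart in this design, and the spread within the factor-bound group holds the differences between the 3 factors. Nothing in the labels states that the 2 libraries of a strain came from separate cultures, so the p-values rest on the spread among 6 libraries that may be technical.

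Raw footprint counts were given for 5 areas of each transcript: the 5′ UTR (the leader), the start codon, the coding region, the stop codon and the 3′ UTR. Library totals ran from 3403297 to 4486412 counts in factor-bound 40S and from 1595793 to 2800652 counts in unselected 40S. Over all genes, the leader took 20.9% ± 3.64 of counts in factor-bound 40S and 9.52% ± 0.404 in unselected 40S (SD, n = 3 each). The start codon took 61.8% ± 0.714 in factor-bound 40S and 54.3% ± 2.92 in unselected 40S. The coding region took 15.2% ± 2.96 in factor-bound 40S and 30.6% ± 2.30 in unselected 40S. Because whole areas differ in this way, tests within an area were scaled to that area's own counts (TMM), so that a fold there is relative to the typical gene of the same area.

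No member overlaps another annotated gene in the RefSeq table of build R64, whose lengths for these genes are coding lengths. TIF4631 lies on chromosome VII (824059 to 826917, strand W) and TIF4632 on the same chromosome (406860 to 409604, strand C). PAB1 lies on chromosome V (510373 to 512106, strand W), CDC33 on chromosome XV (60383 to 61024, strand C) and TIF3 on chromosome XVI (868645 to 869955, strand C). CAF20 (841333 to 841818, strand W) and DED1 (722911 to 724725, strand W) lie on chromosome XV, EAP1 (53704 to 55602, strand W) and TIF1 (554987 to 556174, strand W) on chromosome XI, and TIF2 (153504 to 154691, strand C) on chromosome X. Neighbours within 300 nt are GLG2 upstream of TIF2 (293 nt), TYW3 downstream of TIF4632 (262 nt), RIM20 upstream of CAF20 (263 nt) and the snoRNA gene SNR31 downstream of CAF20 (139 nt). TIF1 and TIF2 have near-identical coding sequences, and the sources used here do not say how reads that match both were counted.

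The 10 mRNAs spread 40S footprints over their length in very different ways. The 5′ UTR share of a gene's own counts spanned 0.821% for EAP1 to 68.1% for TIF4632 in factor-bound 40S, and 0.153% for EAP1 to 43.1% for TIF4632 in unselected 40S. The mRNAs of eIF4G2, the poly(A)-binding protein and eIF4B were the most leader-heavy, and those of EAP1, DED1 and TIF1 had the smallest leader shares. Leader counts, here and below, were not divided by leader length, which was not at hand. The part of leader length in this order was not tested. On TIF4632, the leader held 69.3%, 62.2% and 73.0% of counts in eIF3a-, eIF3c- and eIF2β-bound 40S, against 44.8%, 41.4% and 43.2% in unselected 40S. On PAB1 it held 55.4%, 55.0% and 65.3% in eIF3a-, eIF3c- and eIF2β-bound 40S, against 30.3%, 24.1% and 26.4% in unselected 40S. On TIF3, it held 38.9%, 37.2% and 52.5% in eIF3a-, eIF3c- and eIF2β-bound 40S, against 27.7%, 28.1% and 30.0% in unselected 40S. The groups did not overlap for any of these 3 genes, and the eIF2β-bound library was the highest for each. In the unselected libraries the mean share placed TIF4632, TIF3 and PAB1 at the 89.9th, 82.7th and 82.0th percentile of the 2416 genes with at least 50 counts in each library.

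**Figure D1:**
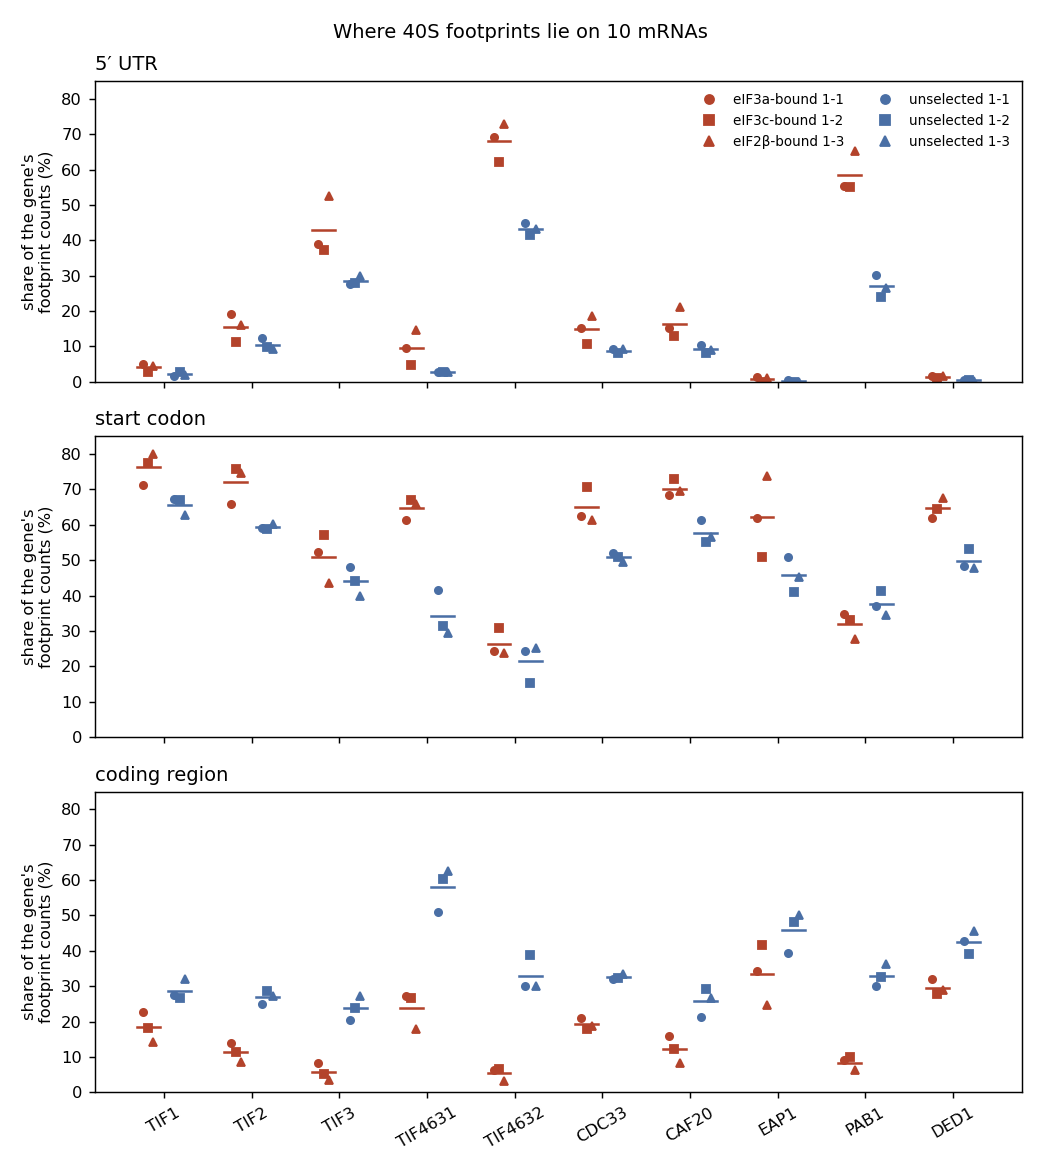
Share of each gene's footprint counts (%) in the 5′ UTR, at the start codon and in the coding region for the 10 genes, with 1 point per library, factor-bound 40S in red to the left of unselected 40S in blue, and lines at group means. TIF4632, PAB1 and TIF3 have the highest leader shares in both groups, and every member's mean coding share is lower in factor-bound 40S.

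At the other end, DED1 carried 22, 23 and 30 leader counts in eIF3a-, eIF3c- and eIF2β-bound 40S, against 9, 4 and 4 in unselected 40S, a leader share of 1.46% ± 0.235 in factor-bound and 0.438% ± 0.150 in unselected 40S (SD, n = 3 each). EAP1 carried 1, 0 and 2 leader counts in factor-bound 40S, against 1, 0 and 0 in unselected 40S. The 0 counts in the eIF3c-bound library allow a leader share of up to 2.83% of EAP1's counts there (upper 95% Wilson limit, counting error only). The leader share of EAP1 is therefore known only to be low.

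The 5′ UTR share was higher in all 3 factor-bound than in all 3 unselected libraries for 8 of the 10 members, against 60.3% of the 2416 genes, and overlapped for TIF2 and EAP1. The start codon share was higher without overlap for 6 members, against 53.9% of genes. The coding share was lower without overlap for 9 members, all but EAP1, against 76.2% of genes. The stop codon share was lower without overlap for all 10, against 54.5% of genes, and the 3′ UTR share for 6, against 44.7%. With 3 libraries against 3, the two-sided exact permutation test of a single share cannot go below p = 0.1, so none of these shares could pass 0.05. A higher leader share and a lower coding share were thus each seen in most of these 2416 genes.

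The start codon share overlapped between groups for TIF3, TIF4632, EAP1 and PAB1. On TIF4632 it was 24.4%, 30.8% and 23.7% in eIF3a-, eIF3c- and eIF2β-bound 40S, against 24.3%, 15.3% and 25.2% in unselected 40S. PAB1 was the only member with a lower mean share in factor-bound 40S. Its start codon held 34.8%, 33.2% and 27.8% of counts in eIF3a-, eIF3c- and eIF2β-bound 40S, against 37.0%, 41.3% and 34.6% in unselected 40S. The groups overlapped and the factor-bound mean was the lower one, whereas the means of the other 9 members were higher in factor-bound 40S. TIF4631 stood at the opposite extreme. Its start codon held 61.4%, 66.9% and 65.9% in eIF3a-, eIF3c- and eIF2β-bound 40S, against 41.7%, 31.5% and 29.5% in unselected 40S. Its coding region held 27.3%, 26.6% and 17.9% in those factor-bound libraries, against 51.0%, 60.2% and 62.5% in unselected 40S, and neither share overlapped between groups.

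Leader footprints per start codon footprint stood above 1 on PAB1 in factor-bound 40S and below 1 in unselected 40S. The ratio was 1.59, 1.66 and 2.35 on PAB1 in eIF3a-, eIF3c- and eIF2β-bound 40S, against 0.819, 0.583 and 0.763 in unselected 40S. The median of 2131 genes was 0.194 in factor-bound 40S and 0.139 in unselected 40S. The groups did not overlap on PAB1, and each factor-bound library had more footprints in the leader than at the start codon, unlike each unselected library. On TIF4632 the ratio was 2.84, 2.02 and 3.07 in eIF3a-, eIF3c- and eIF2β-bound 40S, against 1.84, 2.71 and 1.71 in unselected 40S. These groups overlapped, so the leader outweighed the start codon on the eIF4G2 mRNA with or without selection. On DED1 the ratio was 0.0261, 0.0185 and 0.0232 in eIF3a-, eIF3c- and eIF2β-bound 40S, against 0.0124, 0.00759 and 0.00644 in unselected 40S. The groups did not overlap, and the ratio of the means was 2.56 on DED1, close to the 2.59 on PAB1, but on few leader counts. CAF20 was the other member without overlap, with 0.235 ± 0.0631 in factor-bound 40S and 0.159 ± 0.0107 in unselected 40S (SD, n = 3 each). The share of all genes without overlap was not computed for this ratio, so PAB1, DED1 and CAF20 cannot be set against it.

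**Figure D2:**
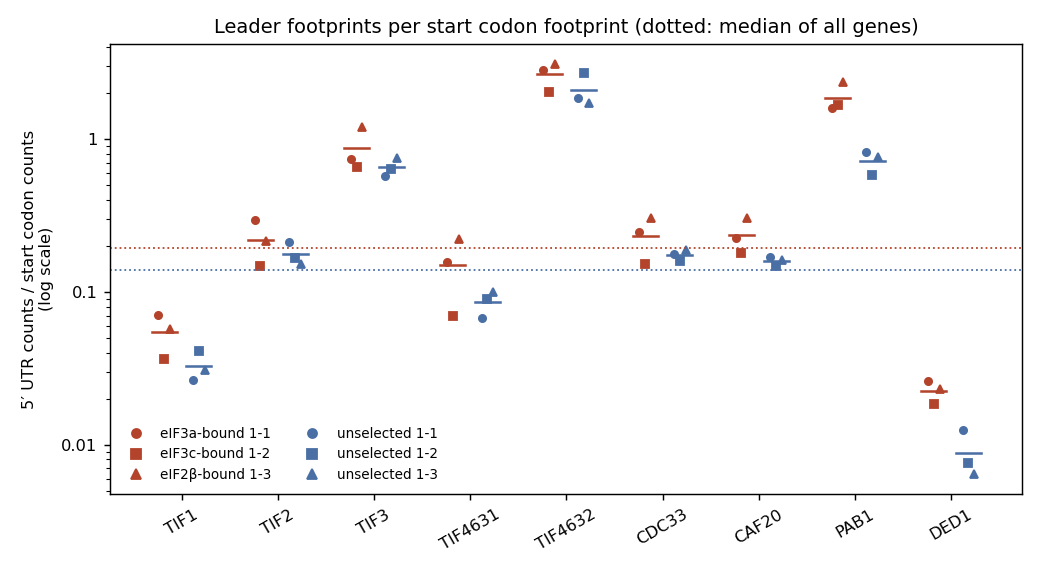
Counts in the 5′ UTR per count at the start codon (log scale) for 9 genes, with 1 point per library, factor-bound 40S to the left of unselected 40S, lines at group means and dotted lines at the medians of all genes. PAB1 lies between 1.59 and 2.35 in factor-bound 40S and between 0.583 and 0.819 in unselected 40S. EAP1 is left out because 3 of its libraries have no leader count.

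Tested as an interaction in edgeR's quasi-likelihood test, the leader of PAB1 gained over its start codon by a log2 fold of 0.75 (SE 0.22), which just missed the threshold (Benjamini-Hochberg adjusted p = 0.0534). With the strain number as a block by area, the PAB1 value was 0.75 with an adjusted p of 0.00703. Its adjusted p ranged from 0.0426 to 0.237 when 1 library was left out, and it passed only without the eIF3a-bound library. The interaction log2 fold of DED1 was 0.68 (SE 0.41, adjusted p = 0.363, edgeR's quasi-likelihood test). Of the 9 members tested, 0 were called and 1 (PAB1) had an unadjusted p under 0.05 in edgeR, while 2.38% of 1929 genes were called higher and 2.85% lower (46 and 55 genes). The block called 95 higher and 127 lower, and scaling to all areas 364 higher and 22 lower. DESeq2 was not run on this interaction. From the lists of neighbouring pathways, 2 genes passed upward in this test, both decay and repression factors: SBP1 (0.81), which encodes an RNA-binding repressor that acts on eIF4G, and LSM1 (0.82), part of the decapping-promoting Lsm1-7 ring. None of the 13 other initiation factor genes tested passed.

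Within the leader itself, 0 of the 9 members tested were called by edgeR's quasi-likelihood test, 0 had an unadjusted p under 0.05, and DESeq2 also called 0. EAP1 had too few leader counts to test. The log2 folds lay between −0.35 for TIF4631 and 0.41 for TIF4632, with adjusted p-values from 0.530 upward. Over all genes, 0% of 2036 were called higher and 1.67% lower in leaders, although 61 genes had an unadjusted p under 0.05 upward and DESeq2 called 2 higher. The block called 32 genes higher and 105 lower, against 0 and 34 without it, and still 0 members. With library sizes from all areas, 1512 genes were called higher and 23 lower in leaders, and the median log2 fold moved to 1.28. Leader counts on TIF4632 were 435, 467 and 781 in eIF3a-, eIF3c- and eIF2β-bound 40S, against 151, 65 and 101 in unselected 40S. The counts were higher in every factor-bound library, as the leader counts of the libraries as a whole were. Neither of the 2 lists had a member called in leaders, with 13 other initiation factors and 10 decay and repression factors tested.

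At the start codon, the mRNAs of the eIF4A helicase copy TIF2 and of eIF4B rose in factor-bound 40S. TIF2 had 7741, 9890 and 9669 start codon counts in eIF3a-, eIF3c- and eIF2β-bound 40S, against 3425, 1710 and 2114 in unselected 40S. Its log2 fold was 0.70 (SE 0.12, adjusted p = 0.0147, edgeR's quasi-likelihood test, Benjamini-Hochberg adjustment). TIF3 had 2084, 3166 and 2248 start codon counts in eIF3a-, eIF3c- and eIF2β-bound 40S, against 896, 515 and 512 in unselected 40S. Its log2 fold was 0.73 (SE 0.17, adjusted p = 0.0381, same test). For both genes every factor-bound library also stood above every unselected library. These 2 of 10 members compare with 1.34% of 3868 genes called higher and 5.12% called lower, and 0 members were called lower, with 6 of 10 at an unadjusted p under 0.05 in either direction. DESeq2 called 2 members as well. With library sizes from all areas, 943 genes were called higher and 92 lower at the start codon with a median log2 fold of 0.54, and without TMM factors 78 were called higher and 168 lower.

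Both start codon calls were lost when any library but the eIF2β-bound one was left out. These fits had no block, and adjusted p-values went up to 0.0792 for TIF2 and 0.137 for TIF3 (edgeR's quasi-likelihood test). With the strain number as a block, 8 of the 10 members were called at the start codon. In that fit TIF2 had a log2 fold of 0.70 (adjusted p = 4.35e-06) and TIF3 one of 0.72 (adjusted p = 1.38e-06). TIF4632 (0.75, adjusted p = 8.99e-04) and CDC33 (0.54, adjusted p = 4.30e-04) joined TIF2 and TIF3 above the typical gene. EAP1 (−1.03, adjusted p = 3.13e-05), DED1 (−0.43, adjusted p = 0.00510), TIF4631 (−0.39, adjusted p = 0.0212) and PAB1 (−0.36, adjusted p = 0.0229) stood below it, though with library sizes from all areas the last 3 had log2 folds above 0 (DED1 0.10, TIF4631 0.12 and PAB1 0.18). The same block called 486 genes higher and 628 lower, against 52 and 198 without it.

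Several members not called without the block had large folds and large errors. TIF4632 had 153, 231 and 254 start codon counts in eIF3a-, eIF3c- and eIF2β-bound 40S, against 82, 24 and 59 in unselected 40S, a log2 fold of 0.76 (SE 0.28, adjusted p = 0.127, edgeR's quasi-likelihood test). EAP1 had 49, 67 and 123 counts in eIF3a-, eIF3c- and eIF2β-bound 40S, against 111, 41 and 56 in unselected 40S, a log2 fold of −0.99 (SE 0.31, adjusted p = 0.0832, same test). The counts of TIF4632 did not overlap between groups and those of EAP1 did. TIF1 (0.08) and CAF20 (0.18) had the smallest folds. Of the other initiation factors, 0 of 17 tested passed at the start codon (median log2 fold 0.01, against 0.02 over all genes and 0.13 over the 10 members). Of the decay and repression factors, 1 of 16 passed, CCR4 (−1.27), the catalytic deadenylase.

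**Figure D3:**
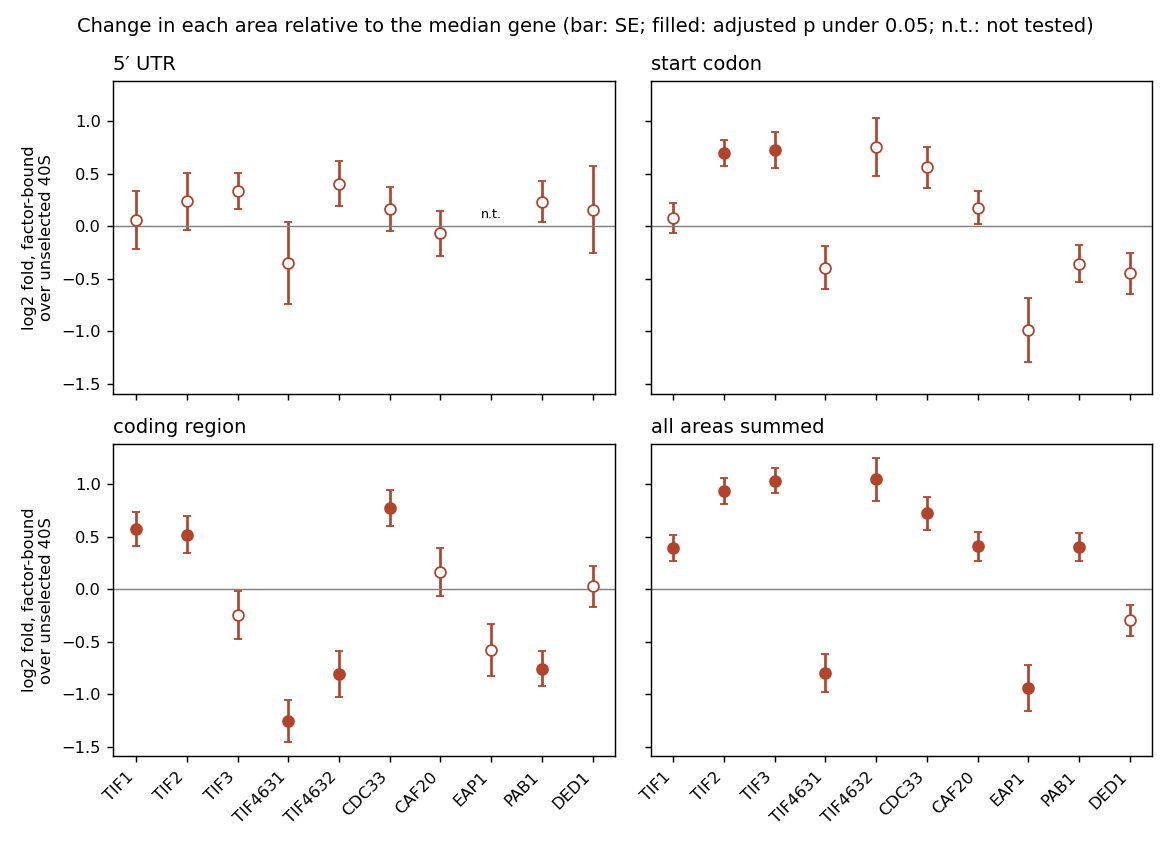
Log2 fold of factor-bound over unselected 40S with its standard error for the 10 genes in the 5′ UTR, at the start codon, in the coding region and over all areas summed, with filled points at an adjusted p under 0.05 in edgeR. No point is filled in the 5′ UTR, 2 are at the start codon, 6 in the coding region and 9 over all areas, and EAP1 was not tested in the 5′ UTR.

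The coding region split the members. Relative to the typical gene, coding footprints of CDC33, TIF1 and TIF2 rose and those of TIF4631, TIF4632 and PAB1 fell in factor-bound 40S, while TIF3, CAF20, EAP1 and DED1 did not pass; with library sizes from all areas the folds of CDC33 (−0.03), TIF1 (−0.22) and TIF2 (−0.28) turned negative. CDC33 had 804, 864 and 633 coding counts in eIF3a-, eIF3c- and eIF2β-bound 40S, against 641, 387 and 423 in unselected 40S. In raw counts only the eIF2β-bound library lay below unselected library 1-1. Its log2 fold was 0.77 (SE 0.17, adjusted p = 0.00582, edgeR's quasi-likelihood test, Benjamini-Hochberg adjustment). PAB1 had 428, 500 and 344 coding counts in eIF3a-, eIF3c- and eIF2β-bound 40S, against 997, 570 and 741 in unselected 40S. Although the factor-bound libraries are deeper, each held fewer PAB1 coding footprints than any unselected library, with a log2 fold of −0.76 (SE 0.17, adjusted p = 0.00572, same test).

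The mRNA of eIF4G1 gave the largest coding change among the members. TIF4631 had 196, 189 and 156 coding counts in eIF3a-, eIF3c- and eIF2β-bound 40S, against 595, 319 and 491 in unselected 40S, a log2 fold of −1.25 (SE 0.20, adjusted p = 0.00116, edgeR's quasi-likelihood test). TIF4632 had 40, 50 and 34 coding counts in eIF3a-, eIF3c- and eIF2β-bound 40S, against 101, 61 and 70 in unselected 40S, a log2 fold of −0.81 (SE 0.22, adjusted p = 0.0165, same test). Every factor-bound library lay below every unselected one on both eIF4G mRNAs. The TIF4632 call was lost without unselected library 1-1 or 1-3 (adjusted p up to 0.0665). The calls of CDC33, PAB1 and TIF4631 passed with each of the 6 libraries left out in turn.

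The eIF4A mRNAs had nearly the same values in the coding region. TIF1 had 1722, 1698 and 1200 coding counts in eIF3a-, eIF3c- and eIF2β-bound 40S, against 1456, 869 and 1024 in unselected 40S, and TIF2 had 1649, 1501 and 1109 in the same factor-bound libraries, against 1445, 830 and 958 in unselected 40S. In raw counts the lowest factor-bound library, the eIF2β-bound one, lay below unselected library 1-1 on both. Scaled to library totals, every factor-bound library lay below every unselected one on both. The log2 folds were 0.57 for TIF1 (SE 0.16, adjusted p = 0.0229, edgeR's quasi-likelihood test) and 0.52 for TIF2 (SE 0.18, adjusted p = 0.0467). With the near-identical pair counted as 1 gene the log2 fold was 0.55 with an adjusted p of 0.0252. Both single calls were lost without any 1 of the unselected libraries, and that of TIF2 also without the eIF3a-bound library, with adjusted p-values up to 0.0971 for TIF1 and 0.163 for TIF2. TIF2 also missed the threshold in DESeq2 (adjusted p = 0.0715), without the filter (adjusted p = 0.0521) and without the TMM factors (0.45, adjusted p = 0.0604), which leaves 2 members called higher and 3 lower in each of these.

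The 3 members called higher and 3 called lower compare with 14.4% of 4797 genes called higher and 11.8% called lower in coding regions. With library sizes from all areas, 180 genes were called higher and 2385 lower, and the median log2 fold moved to −0.81. Coding length moved with the fold across the table. Genes of the shortest length tertile (up to 966 nt) had a median log2 fold of 0.40, with 26.4% called higher and 2.31% lower, and CDC33 and CAF20 are among them. Genes of the middle tertile (968 to 1728 nt) had a median of −0.01, with 11.8% called higher and 8.40% lower. TIF1 and TIF2, both called higher, and TIF3, not called, are in that middle tertile. Genes of the longest tertile (from 1731 nt) had a median of −0.44, with 4.77% called higher and 24.7% lower. They include TIF4631, TIF4632, EAP1, PAB1 and DED1, of which 3 were called lower. PAB1, at 1734 nt, lies just inside that tertile. The part of coding length in these results was not tested.

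**Figure D4:**
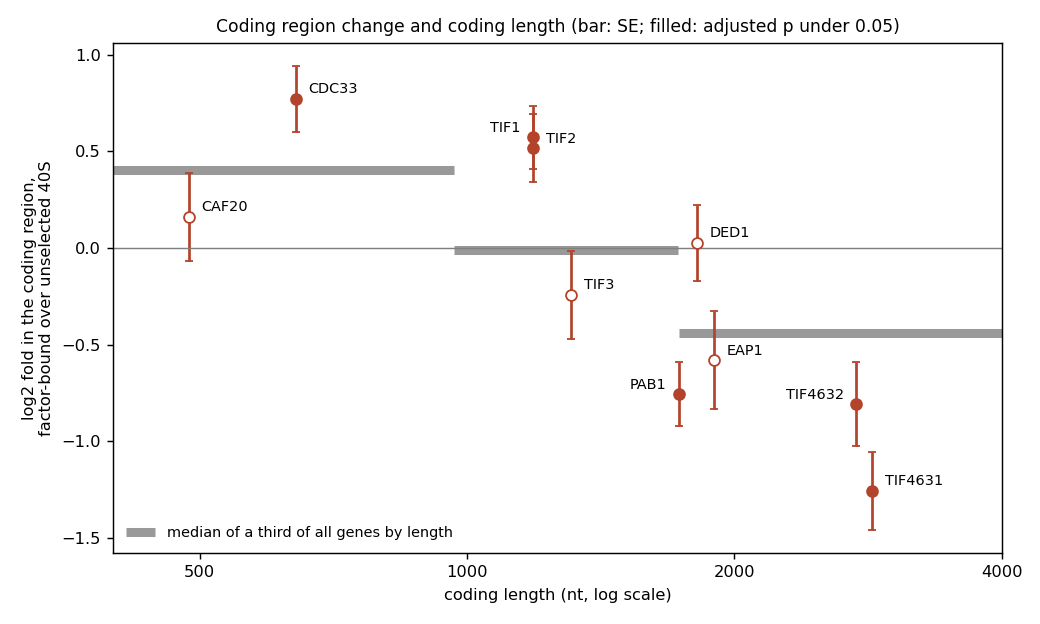
Log2 fold in the coding region with its standard error against coding length (nt, log scale) for the 10 genes, with grey bars at the medians of the length tertiles of all genes tested. The 3 members called lower, PAB1, TIF4632 and TIF4631, are in the longest tertile, whose median is −0.44.

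Per nucleotide, coding footprints also showed how far the members differ in level. In unselected 40S, coding density (CPM per kb of coding sequence, with CPM over the whole library) was 451 ± 11.3 for TIF1, 433 ± 5.89 for TIF2 and 361 ± 15.2 for CDC33 (SD, n = 3). It was 241 ± 34.8 for CAF20, 212 ± 11.7 for PAB1, 144 ± 25.0 for DED1, 125 ± 19.7 for TIF3 and 78.3 ± 11.0 for TIF4631, and 16.4 ± 0.744 for EAP1 and 13.5 ± 0.395 for TIF4632. TIF1 and TIF2 were at the 97.3rd and 97.2nd percentile of 5668 genes, and TIF4632 at the 56.9th. The neighbours CAF20 and PAB1, and DED1 and TIF3, were closer than their SDs, and so the order within those pairs is not firm. In factor-bound 40S the same level of library-scaled coding density was 324 ± 100.4 for TIF1, 297 ± 74.3 for CDC33, 60.6 ± 14.7 for PAB1 and 15.7 ± 4.06 for TIF4631. On this scale, which is not relative to other coding regions, no member had a higher mean in factor-bound 40S, and CDC33 alone overlapped between the groups. The share of all genes that were lower without overlap was not computed on this scale. Over all genes, the coding region took 15.2% of counts in factor-bound 40S and 30.6% in unselected 40S.

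Of the other initiation factor genes, 3 of 18 rose and 4 fell in the coding region (median log2 fold −0.15, against −0.11 over the 10 members and −0.0034 over all genes). Those that rose were TIF34 (0.68) and PRT1 (0.49), which encode eIF3 subunits, and TIF11 (0.55), which encodes eIF1A. Those that fell were GCD2 (−1.44) and GCD6 (−0.86), which encode eIF2B subunits, FUN12 (−1.41), which encodes eIF5B, and NIP1 (−1.18), which encodes eIF3c. Of the decay and repression factor genes, 1 of 17 rose, CDC39 (1.80, the Not1 scaffold of the Ccr4-Not complex), and 4 fell. The 4 were PAT1 (−1.17, a decapping activator), CCR4 (−1.16), the exonuclease gene XRN1 (−0.95) and PBP1 (−0.65, which encodes a partner of Pab1). All of these passed edgeR's quasi-likelihood test at a Benjamini-Hochberg adjusted p under 0.05.

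Set against the start codon of the same gene, coding footprints fell on the mRNAs of both eIF4G proteins and of eIF4B. The interaction log2 fold was −1.54 for TIF4632 (SE 0.32, adjusted p = 0.00181, edgeR's quasi-likelihood test, Benjamini-Hochberg adjustment), −0.96 for TIF3 (SE 0.23, adjusted p = 0.00473) and −0.84 for TIF4631 (SE 0.22, adjusted p = 0.00828). TIF3 had 332, 292 and 180 coding counts in eIF3a-, eIF3c- and eIF2β-bound 40S, against 379, 277 and 349 in unselected 40S. Scaled to library totals, its coding counts were 97.6, 65.8 and 40.1 CPM in those factor-bound libraries, against 135, 174 and 185 CPM in unselected 40S. On that scale its coding counts were lower and its start codon counts higher in every factor-bound library than in every unselected one. These 3 of 10 members compare with 11.5% of 3776 genes called lower, and 0 members were called higher, against 15.4% of genes, with 5 members at an unadjusted p under 0.05 in either direction. With library sizes from all areas, 53 genes were called higher and 2492 lower, and all 10 members lower. The TIF4631 call was lost without unselected library 1-3 (adjusted p = 0.0622), and the other 2 passed without any 1 library.

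In this test 1 of 17 other initiation factor genes rose, TIF35 (0.67, an eIF3 subunit). In the same list 4 fell, NIP1 (−1.60), GCD2 (−1.30), FUN12 (−1.25) and TIF5 (−0.66, the GTPase-activating protein eIF5). Of 16 decay and repression factor genes, 2 rose, SCD6 (1.60, a repressor that binds eIF4G) and CDC39 (1.34). In that list 4 fell, POP2 (−1.51, a deadenylase subunit), XRN1 (−1.21), PAT1 (−1.17) and PBP1 (−0.94).

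Summed over all areas, a gene's counts show how much of the 40S signal it takes in each library. The sum mixes areas that differed between the groups over all genes. The leader took 20.9% in factor-bound and 9.52% in unselected 40S, and the coding region 15.2% and 30.6%. A summed fold therefore also depends on where a gene's footprints lie, and the part of this was not tested. TIF4632 took 185, 169 and 238 CPM (counts scaled to a common library total) in eIF3a-, eIF3c- and eIF2β-bound 40S, against 120.3, 98.4 and 124 in unselected 40S. TIF4631, its paralog, took 211, 160.1 and 194 CPM in those factor-bound libraries, against 416, 332 and 416 in unselected 40S. The groups did not overlap on either gene, and the directions were opposite. The log2 folds were 1.04 for TIF4632 (SE 0.20, adjusted p = 0.00584, edgeR's quasi-likelihood test, Benjamini-Hochberg adjustment) and −0.79 for TIF4631 (SE 0.18, adjusted p = 0.0105). Relative to each area, TIF4632 was not called in the leader (0.41) or at the start codon (0.76), and was called lower in the coding region (−0.81).

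The eIF4B mRNA TIF3 took 1172, 1251 and 1152 CPM in eIF3a-, eIF3c- and eIF2β-bound 40S, against 664, 733 and 680.4 in unselected 40S, a log2 fold of 1.03 (SE 0.12, adjusted p = 0.00150, edgeR's quasi-likelihood test). TIF2 took 3449.6, 2941 and 2886 CPM in the factor-bound libraries, against 2067, 1825 and 1859 in unselected 40S, a log2 fold of 0.94 (SE 0.13, adjusted p = 0.00182). CDC33 took 1129.8, 1092 and 751 CPM in the factor-bound libraries, against 714, 749 and 666 in unselected 40S, a log2 fold of 0.72 (SE 0.16, adjusted p = 0.00934). Groups did not overlap for these 3 genes, though the eIF2β-bound library of CDC33 exceeded unselected library 1-2 only slightly. EAP1 took 23.2, 29.7 and 37.2 CPM in eIF3a-, eIF3c- and eIF2β-bound 40S, against 77.8, 62.7 and 65.6 in unselected 40S, a log2 fold of −0.94 (SE 0.22, adjusted p = 0.0123, same test). The EAP1 call was lost without unselected library 1-1 (adjusted p = 0.0510).

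The remaining 3 calls were small. TIF1 (0.39, adjusted p = 0.0387), CAF20 (0.41, adjusted p = 0.0487) and PAB1 (0.40, adjusted p = 0.0493) passed upward in edgeR's quasi-likelihood test, yet their CPM overlapped between groups. Each of the 3 calls survived the removal of only 1 of the 6 libraries, with adjusted p-values up to 0.150, 0.148 and 0.147. Relative to each area, PAB1 was not called in the leader (0.24) or at the start codon (−0.36), and was called lower in the coding region (−0.76). DED1 did not pass (−0.30, adjusted p = 0.148), but did with the strain number as a block (−0.29, adjusted p = 0.0203). It took 399, 435 and 427 CPM in eIF3a-, eIF3c- and eIF2β-bound 40S, against 535, 621 and 687 in unselected 40S, without overlap.

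In all, 7 of 10 members were called higher and 2 lower, against 15.4% of 5114 genes higher and 17.3% lower. With the strain number as a block, 7 members were called higher and 3 lower, and 1274 genes were called higher and 1361 lower, against 787 and 886 without it. Scaled by library totals without TMM factors, 3 members were called higher (TIF2, TIF3 and TIF4632) and 3 lower (TIF4631, EAP1 and DED1). CDC33 then missed the threshold (0.48, adjusted p = 0.0543), and DED1 passed (−0.55, adjusted p = 0.0172). Over all genes that scaling called 485 higher and 1419 lower, and moved the median log2 fold to −0.31. Of the other initiation factor genes, 4 of 18 rose: GCN3 (0.81, an eIF2B subunit), TIF5 (0.76), TIF34 (0.58) and SUI2 (0.48, eIF2α). In that list 3 fell: GCD1 (−0.77, an eIF2B subunit), FUN12 (−0.65) and GCD6 (−0.64). Of the decay and repression factor genes, 5 of 17 rose: SBP1 (1.25), LSM1 (1.02), CDC39 (0.93), PBP1 (0.61) and POP2 (0.50), and 2 fell: PAN3 (−1.28, of the Pan2-Pan3 deadenylase) and CCR4 (−1.05).

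The copies can also be set directly against each other within a library, which does not depend on library scaling. A ratio of summed counts still depends on where the footprints of each copy lie. Counts of TIF4632 over TIF4631, all areas summed, gave a ratio of 0.876, 1.06 and 1.23 in eIF3a-, eIF3c- and eIF2β-bound 40S, against 0.289, 0.296 and 0.298 in unselected 40S. The eIF4G2 mRNA thus took about as many footprints as the eIF4G1 mRNA after selection and far fewer without it. At the start codon the ratio was 0.425 ± 0.0704 in factor-bound 40S and 0.189 ± 0.0580 in unselected 40S (SD, n = 3 each), and in the coding region 0.229 ± 0.0317 in factor-bound 40S and 0.168 ± 0.0244 in unselected 40S. In the leader it was 8.87 ± 4.58 in factor-bound 40S and 4.43 ± 0.127 in unselected 40S. The factor-bound mean over the unselected mean was 3.58 for the sum, 2.00 in the leader, 2.25 at the start codon and 1.36 in the coding region. All of these ratios of TIF4632 over TIF4631 were higher in every factor-bound library. The two-sided exact permutation test gave p = 0.1 for each, the smallest that 3 against 3 can give.

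For the eIF4A copies, the ratio of TIF2 over TIF1 at the start codon was 1.42, 1.37 and 1.44 in eIF3a-, eIF3c- and eIF2β-bound 40S, against 0.962, 0.785 and 1.06 in unselected 40S. The groups did not overlap (two-sided exact permutation p = 0.1). In the coding region the ratio was 0.958, 0.884 and 0.924 in eIF3a-, eIF3c- and eIF2β-bound 40S, against 0.992, 0.955 and 0.936 in unselected 40S. There the groups overlapped (exact permutation p = 0.3) and all 6 values lay close to 1, where near-identical sequences may have been counted to either copy. In the leader the ratio was 5.67 ± 0.218 in factor-bound 40S and 5.34 ± 2.22 in unselected 40S, with overlap. The proteins of these copies are the same, so the start codon ratio concerns mRNAs and not products. How reads that match both copies were counted at the start codon is not known either. For the eIF4E-binding proteins, EAP1 over CAF20 in all areas summed was 0.0606 ± 0.0223 in factor-bound 40S and 0.150 ± 0.0144 in unselected 40S, without overlap.

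**Figure D5:**
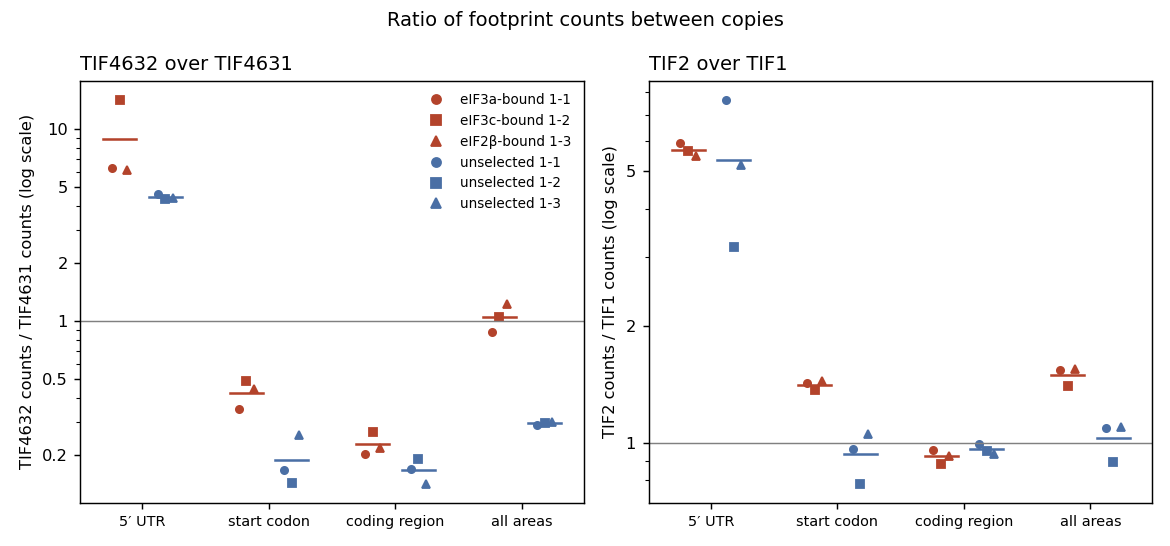
Ratio of footprint counts of TIF4632 over TIF4631 and of TIF2 over TIF1 (log scale) in the 5′ UTR, at the start codon, in the coding region and over all areas, with 1 point per library, factor-bound 40S to the left of unselected 40S, and lines at group means. Over all areas TIF4632 over TIF4631 lies between 0.876 and 1.23 in factor-bound 40S and between 0.289 and 0.298 in unselected 40S, while the coding ratio of TIF2 over TIF1 overlaps.

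Footprints at stop codons were few, and CDC33 and CAF20 had the largest mean stop codon shares among the members in unselected 40S. The share was lower without overlap in factor-bound 40S for all 10 members, against 54.5% of genes, and the part of depth in this was not tested. The gap was small on PAB1, with 0.559% in eIF3c-bound 40S against 0.570% in unselected library 1-2. TIF4632 had only 0, 0 and 1 stop codon counts in eIF3a-, eIF3c- and eIF2β-bound 40S, against 2, 5 and 2 in unselected 40S. CAF20 had 5, 18 and 9 stop codon counts in eIF3a-, eIF3c- and eIF2β-bound 40S, against 70, 38 and 47 in unselected 40S. CDC33 had 20, 15 and 24 in eIF3a-, eIF3c- and eIF2β-bound 40S, against 97, 80 and 62 in unselected 40S. Every factor-bound library was far below every unselected one on both genes. The stop codon share was 0.491% ± 0.244 in factor-bound and 5.39% ± 0.291 in unselected 40S for CAF20, and 0.514% ± 0.202 in factor-bound and 5.49% ± 1.04 in unselected 40S for CDC33 (SD, n = 3 each). The unselected shares put CAF20 and CDC33 at the 89.9th and 90.4th percentile of genes.

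Relative to other stop codons, CAF20 fell by 1.21 on the log2 scale (SE 0.36, adjusted p = 0.0275, edgeR's quasi-likelihood test, Benjamini-Hochberg adjustment). CDC33 did not pass (−0.87, SE 0.34, adjusted p = 0.0790). That was 1 of 7 members tested called lower and 0 higher, against 10.3% of 497 genes lower and 14.3% higher (402 lower and 22 higher with library sizes from all areas), with 2 members at an unadjusted p under 0.05 and 2 called by DESeq2. The CAF20 call was lost without the eIF3a-bound or eIF2β-bound library or unselected library 1-1 or 1-3 (adjusted p up to 0.0856). From the lists, SUI3 rose (1.64), which carries the tag in strain SY194, and TIF11 fell (−1.08), among 9 other initiation factor genes tested. None of the 3 decay and repression factor genes tested passed.

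In the 3′ UTR, 0 of 7 members tested were called by edgeR's quasi-likelihood test, 0 had an unadjusted p under 0.05 and DESeq2 called 0, against 4% of 725 genes called higher and 2.21% lower (29 and 16 genes). The block called 44 higher and 26 lower, and scaling to all areas 13 higher and 304 lower. DED1 carried the largest mean 3′ UTR share among the members in both groups. It held 4.42%, 6.46% and 1.77% in eIF3a-, eIF3c- and eIF2β-bound 40S, against 7.01%, 7.06% and 5.15% in unselected 40S, and the groups overlapped. None of the 10 other initiation factor genes and 3 decay and repression factor genes tested passed in the 3′ UTR.

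Each factor was represented by 1 library, so values per factor are ratios to the unselected library of the same strain, after scaling by the area's counts, with 95% counting intervals and no test. The summed counts of TIF3 had almost the same ratio for all 3 factors, 1.76 for eIF3a, 1.71 for eIF3c and 1.69 for eIF2β. For TIF2 the summed ratio was 1.67 for eIF3a, 1.61 for eIF3c and 1.55 for eIF2β. For TIF4631 it was 0.506 for eIF3a, 0.482 for eIF3c and 0.467 for eIF2β. The summed counts of these 3 genes thus varied little between factors, though single areas of theirs varied more, such as the coding region of TIF3 given below. For TIF4632 the summed ratio was 1.53 for eIF3a, 1.72 for eIF3c and 1.93 for eIF2β. Its start codon ratio was 1.44 (1.09 to 1.90) for eIF3a, 2.95 (1.93 to 4.69) for eIF3c and 1.54 (1.16 to 2.09) for eIF2β. The start codon ratio of CDC33 was 1.78 (1.65 to 1.92) for eIF3a, 1.72 (1.58 to 1.88) for eIF3c and 1.19 (1.09 to 1.30) for eIF2β. The summed ratio of EAP1 was 0.298 (0.228 to 0.387) for eIF3a, 0.474 (0.363 to 0.621) for eIF3c and 0.568 (0.447 to 0.722) for eIF2β.

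Single areas gave uneven ratios. The stop codon ratio of PAB1 was 0.327 (0.0373 to 1.33) for eIF3a, 3.02 (1.42 to 6.97) for eIF3c and 0.374 (0.123 to 0.967) for eIF2β, on 2 to 28 counts. The leader ratio of TIF1 was 1.59 (1.27 to 2.01) for eIF3a, 0.544 (0.426 to 0.699) for eIF3c and 1.03 (0.782 to 1.36) for eIF2β. The coding ratio of TIF3 was 1.15 (0.987 to 1.33) for eIF3a, 0.730 (0.617 to 0.864) for eIF3c and 0.594 (0.494 to 0.714) for eIF2β. By contrast, the coding ratio of PAB1 was 0.562 (0.501 to 0.630) for eIF3a, 0.607 (0.538 to 0.686) for eIF3c and 0.535 (0.469 to 0.609) for eIF2β. With 1 library per factor, a difference between factors and one between libraries or strains cannot be told apart.

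The members were also compared by their whole profile of area shares, as the mean over the 6 libraries of the percentage points of counts that would have to move between areas. Among the 8 members with at least 500 counts in each library, TIF2 and CAF20 were the most alike (4.83 percentage points), followed by CDC33 and CAF20 (7.51). PAB1 and DED1 (41.9) and PAB1 and TIF1 (41.8) were the least alike, and TIF3 was the member nearest to PAB1 (14.6). The copies TIF1 and TIF2 were 10.3 percentage points apart.

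Among the 392 other genes with as many counts, the closest to each member was ASC1 for TIF1 (3.05 percentage points), HCH1 for CAF20 (3.86) and HOM6 for TIF2 (4.08). It was ARO4 for TIF3 (5.21), SES1 for CDC33 (5.25), the eIF3 subunit gene TIF35 for DED1 (5.33) and FAS2 for TIF4631 (6.35). PAB1 had the most distant nearest gene, CLU1 (7.60), and also the largest median distance to all 392 genes (37.4, against 13.9 for TIF1). CLU1, which encodes a protein that was purified with eIF3 in yeast, held 60.4% of its counts in the leader in factor-bound 40S and 25.2% in unselected 40S. These likenesses are descriptions over the same 6 libraries.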

How the data were processed

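The authors deposited whole-number footprint counts per gene and area, without normalization. The sources used here do not say how footprints were assigned to areas or strands, nor how multi-mapping reads and duplicates were treated. Build R64 and the tools TopHat2 2.1.0, Bowtie2 2.2.6, Bowtie 1.2.2 and CASAVA 1.8 are named, without role or order, in the submitters' processing notes. Groups come from the titles, and 0 columns lacked a sample. The RefSeq table of R64 matched 5776 of 5818 gene IDs and missed 42.

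Counts of each area and their sum were tested in edgeR 4.0.16 (R 4.3.3, limma 3.58.1) with filterByExpr by group, TMM within the area and the quasi-likelihood test of 3 factor-bound against 3 unselected libraries. Interactions between areas used the library as a block. P-values were adjusted by Benjamini-Hochberg over all genes tested, at a threshold of 0.05, and an SE is the absolute log2 fold over the square root of F. Shares are a gene's counts in an area over its counts in all 5, compared by exact permutation (Python 3.11.15 with pandas 2.3.3, SciPy 1.17.1, matplotlib 3.10.9 and NumPy 2.4.6), and intervals at 95% cover counting error only. The functions were tested on simulated data.

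Alternatives were RLE size factors, DESeq2 1.42.0, no filter, the replicate block, scaling to all areas, shares of 3 areas and leaving out each library. Counting TIF1 and TIF2 as 1 gene, and scaling by totals without TMM factors, were chosen after seeing the data. The 10 genes, the lists of 18 other initiation factors and 17 decay and repression factors, and the tests were chosen with earlier results of these data known. All 10 members are named in every comparison or counted, list genes only past the threshold, and the nearest gene for members with at least 500 counts in each library.

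A library number stands for 1 tagged strain in either group. Within a number, deviations of the 2 libraries from their group means had a correlation of 0.240 to 0.551 for leaders, start codons, coding regions and sums over areas, and of 0.0690 to 0.209 for stop codons and 3′ UTRs, so the numbers pair the libraries.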

Additional observations from a re-analysis of the deposited data

How the results depend on the processing

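Of 657 recomputed log2 folds of the members, 537 kept their direction and their side of the threshold, 48 lost a call, 35 gained one and 37 changed sign. Scaling to the library sizes of all areas moved the median log2 fold of all genes by 1.28 in leaders, 0.54 at start codons, −0.81 in coding regions, −1.80 at stop codons and −0.97 in 3′ UTRs, so changes are reported relative to the area. By construction it changed the members called to 9 in leaders, 6 at start codons, 7 at stop codons, 3 in 3′ UTRs, 10 for the coding region over the start codon and 2 for the leader over the start codon. In coding regions 6 were still called, but 0 higher and 6 lower, against 180 higher and 2385 lower of 4797 genes. CDC33, TIF1 and TIF2 lost their calls, and TIF3 (−1.03), EAP1 (−1.40) and DED1 (−0.81) were called lower. Under this scaling the fold turned positive in leaders for TIF4631 (1.02) and CAF20 (1.23), and at start codons for PAB1 (0.18), TIF4631 (0.12) and DED1 (0.10). It turned negative in coding regions for TIF2 (−0.28), TIF1 (−0.22), CDC33 (−0.0278), DED1 (−0.81) and CAF20 (−0.62). Over the start codon, the coding fold turned negative for EAP1 (−0.89), TIF1 (−0.88), CDC33 (−1.12) and DED1 (−0.90). The leader over the start codon turned positive for TIF4632 (0.39), TIF2 (0.27), CDC33 (0.36), CAF20 (0.52) and TIF3 (0.36).

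The replicate block called 8 members at start codons, against 2 without it, and 1 for the leader over the start codon, against 0. It changed 1 more call, DED1 over all areas summed. RLE size factors and no filter also called 1 member, PAB1, for the leader over the start codon. DESeq2 and no filter each called 2 at stop codons. The leader fold of CAF20 was 0.0364 in DESeq2 and 0.0614 without the filter, and the coding fold of DED1 was −0.0283 without TMM factors. The cause was not tested for any of these.

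With 1 library left out, members called ranged from 0 to 3 at start codons, 3 to 6 in coding regions, 0 to 1 at stop codons, 5 to 8 over all areas and 0 to 1 for the leader over the start codon. The sign turned in some of these for small folds. In leaders these were TIF2 (−0.11 to 0.53), TIF1 (−0.25 to 0.34), CDC33 (−0.0372 to 0.28) and CAF20 (−0.13 to 0.14). In coding regions they were DED1 (−0.16 to 0.14) and CAF20 (−0.0704 to 0.32). Over the start codon they were the coding fold of CAF20 (−0.17 to 0.0827) and the leader folds of TIF4631 (−0.10 to 0.39), TIF1 (−0.15 to 0.23) and CAF20 (−0.18 to 0.0673).

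Depth limits the leaders of EAP1 and DED1, the stop codons of EAP1, TIF4632 and DED1, and the 3′ UTRs of TIF4631, TIF4632 and EAP1, where counts were too few to test or rest on few footprints. The 3 factors have 1 library each, so no spread between replicates of a factor is known.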
